A study of Mus musculus with 6 samples.

Results

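The imprinted growth genes examined here were Igf2, H19, Cdkn1c, Gnas, Peg3, Mest, Grb10, Igf2r, Plagl1 and Dlk1, taken as all array probes annotated to these 10 symbols. They were followed among the 19057 genes with a probe, in E14 cells, a mouse embryonic stem cell line, carrying Snail-ER, in which the transcriptional repressor Snail (Snai1) is joined to a ligand-binding domain of the estrogen receptor. Adding 4-hydroxytamoxifen (4-OHT) moves this fusion into the nucleus. Each of 6 Illumina arrays held 1 time, namely 0, 2, 4, 8, 12 or 24 h after 4-OHT, and all cells grew in serum with LIF, the cytokine that maintains the undifferentiated state. Cells without the fusion, and cells kept for the same hours without 4-OHT, were not analysed here, so time in culture, 4-OHT and the fusion cannot be told apart. Not stated in the labels are the dose of 4-OHT, whether each array had its own culture, how the fusion is driven, or whether the line is 1 clone.

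Imprinted genes are transcribed mainly from the allele inherited from 1 parent, under methylation marks set in the germline. Many act on growth, and paternally expressed members such as Igf2 tend to promote it while maternally expressed members such as Cdkn1c, Grb10 and Igf2r tend to restrain it. Among the members, Igf2, Peg3, Mest, Plagl1 and Dlk1 are expressed from the paternal allele in most mouse tissues, and H19, Cdkn1c, Grb10 and Igf2r from the maternal allele. The Gnas locus makes transcripts of both kinds and was kept apart. An array reads total RNA, so no value below says which allele was used.

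The members were annotated to 29 probes of 9 genes, and 17 probes of 8 genes were detected on at least 1 array. No probe was annotated to H19, a noncoding RNA gene, which therefore has no value here. All 3 probes of Plagl1, a zinc finger factor gene, stayed below detection, with normalized signals between -12.6 and -2.31 on the 6 arrays. Detection here means reaching the lowest normalized signal of any probe with a detection p-value under 0.01 on that array. From 0 to 24 h this limit was 60.6, 71.1, 31.4, 62.0, 18.5 and 18.9, so the 0, 2 and 8 h arrays had the widest backgrounds. Igf2 and Dlk1 passed the filter only through later arrays and had to be higher there.

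The promoter windows shown here, credited to RefSeq with build GRCm38.p6, hold the letters of motifs tied to the treatment or to imprinting. They run from 250 bases before to 50 bases after an annotated start, in the direction of the gene, and the table held 17 windows for 8 of the members. Capitals mark CAGGTG, the E-box bound by Snail, or TGCCGC, the core bound by the imprint-keeping factor ZFP57 when methylated. Both were searched on both strands, as CACCTG and GCGGCA for the other strand, and no matches of the pair overlapped each other.
Igf2, chr7:142661222-142661521, minus strand: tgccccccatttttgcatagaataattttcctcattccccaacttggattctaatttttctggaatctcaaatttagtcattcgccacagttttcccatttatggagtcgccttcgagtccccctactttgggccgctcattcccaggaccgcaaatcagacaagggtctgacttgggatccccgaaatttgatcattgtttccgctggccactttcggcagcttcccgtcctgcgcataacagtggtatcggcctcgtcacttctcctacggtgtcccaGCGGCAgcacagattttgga
Mest, chr6:30737800-30738099, plus strand: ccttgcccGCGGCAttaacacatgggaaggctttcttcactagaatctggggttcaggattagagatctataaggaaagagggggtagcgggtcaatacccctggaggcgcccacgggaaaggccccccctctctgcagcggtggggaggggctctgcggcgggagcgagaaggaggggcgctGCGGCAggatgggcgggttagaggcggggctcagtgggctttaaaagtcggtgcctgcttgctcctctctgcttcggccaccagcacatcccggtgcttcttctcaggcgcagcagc
Mest, chr6:30733256-30733555, plus strand: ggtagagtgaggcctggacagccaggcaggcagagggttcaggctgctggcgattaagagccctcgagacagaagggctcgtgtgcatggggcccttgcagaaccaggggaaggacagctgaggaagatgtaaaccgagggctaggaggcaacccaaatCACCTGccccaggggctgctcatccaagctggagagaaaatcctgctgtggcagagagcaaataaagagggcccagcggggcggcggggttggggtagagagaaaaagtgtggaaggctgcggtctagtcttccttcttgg
Grb10, chr11:12037371-12037670, minus strand: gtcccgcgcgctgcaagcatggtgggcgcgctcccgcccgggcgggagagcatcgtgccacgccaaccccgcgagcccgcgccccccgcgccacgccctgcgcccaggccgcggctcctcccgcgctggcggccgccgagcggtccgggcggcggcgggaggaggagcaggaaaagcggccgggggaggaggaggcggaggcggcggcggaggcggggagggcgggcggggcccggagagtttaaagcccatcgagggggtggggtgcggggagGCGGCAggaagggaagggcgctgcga
Igf2r, chr17:12769657-12769956, minus strand: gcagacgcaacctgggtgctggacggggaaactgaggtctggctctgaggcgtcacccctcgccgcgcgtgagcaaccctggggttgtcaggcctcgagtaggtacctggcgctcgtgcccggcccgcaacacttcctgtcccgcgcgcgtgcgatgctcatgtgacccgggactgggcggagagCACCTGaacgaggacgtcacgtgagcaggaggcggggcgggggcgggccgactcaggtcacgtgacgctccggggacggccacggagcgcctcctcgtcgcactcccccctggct
Gnas, chr2:174284070-174284369, plus strand: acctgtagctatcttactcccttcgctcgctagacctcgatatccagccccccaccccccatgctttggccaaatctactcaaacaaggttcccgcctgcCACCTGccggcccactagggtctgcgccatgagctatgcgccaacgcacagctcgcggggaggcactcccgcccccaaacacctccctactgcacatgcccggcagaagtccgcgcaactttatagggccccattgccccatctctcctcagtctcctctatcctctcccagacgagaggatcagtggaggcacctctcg
The E-box was present in 5 of the 17 windows, against 20.2% of all 32851 windows, and TGCCGC in 5 of 17, against 11.6%. Neighbouring starts of Mest and of Gnas share bases, so these counts repeat some matches. None of the 4 Igf2 windows held the E-box letters, and the Igf2 window above held TGCCGC 30 bases after its start. The upstream Mest window held the E-box 91 bases before its start, and the Igf2r window 65 bases before. The Mest window at the downstream start held TGCCGC at 242 and at 67 bases before it. A match is a description of letters only and marks no bound site.

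The members were proposed with values of these 6 arrays known, so their time courses are given as a description with no test. Igf2, which encodes a secreted growth factor of the fetus, had normalized signals of 18.2, 38.2 and 28.7 at 0, 2 and 4 h and of 499, 441 and 699.5 at 8, 12 and 24 h (probe ILMN_2597769). The 3 early signals were below detection and the 3 later ones were all far above them. On the scale used for every fold here, normalized signal plus 16, Igf2 was at least 6.72-fold above 0 h at 8 h, at least 5.96-fold at 12 h and at least 9.34-fold at 24 h. The bound sets the later signal against the lowest detectable signal of the 0 h array. The step from 4 to 8 h landed on an array with a wide background, whose lowest detected signal was 62.0. In the deposited intensities before normalization, Igf2 gave 126, 140.0, 123, 675, 514 and 769.7 from 0 to 24 h, with detection p-values of 0.0609, 0.0288 and 0.0150 on the early arrays and 0 later.

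Igf2r encodes the receptor that takes up IGF2 and carries it to the lysosome for breakdown. Its brighter probe had normalized signals of 205, 166, 184, 134, 157 and 199 from 0 to 24 h, lowest at 8 h and back near its starting level at 24 h. The other Igf2r probe had 136, 149, 158, 124, 142 and 143. Early and late values overlapped for both probes. The log2 differences from 0 h at 24 h were -0.04 and 0.07, so Igf2r lay near the median of all genes, 0.05.

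Grb10 encodes an adaptor that binds the insulin and IGF1 receptors and dampens their signal. Its main probe had normalized signals of 899.8, 976, 1024, 1543, 1680.4 and 2064 from 0 to 24 h, higher at every step. It was 1.70-fold above 0 h at 8 h, 1.85-fold at 12 h and 2.27-fold at 24 h. A dimmer Grb10 probe, detected at 4, 12 and 24 h, had 46.3, 54.5 and 102 at those times, and the third was not detected.

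Cdkn1c encodes p57, an inhibitor of cyclin-dependent kinases that holds cells back from division. Its normalized signals were 212, 317, 348, 667, 659 and 1151 from 0 to 24 h, detected on all 6 arrays. Folds over 0 h were 1.46, 1.59, 2.99, 2.96 and 5.11 at the later times in order. Cdkn1c was already higher at 2 and 4 h than at 0 h by amounts beyond the 95th percentile of all genes at those times, 0.47 and 0.53 on the log2 scale. The log2 differences were 0.54 and 0.67. The dimmest Mest probe was also beyond both percentiles, at 0.54 and 0.77, but the other Mest probes were beyond neither. The main Gnas probe was beyond the percentile at 2 h (0.56) but not at 4 h (0.20). No replicate of either time exists against which these early differences could be judged.

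Dlk1 encodes a transmembrane protein of the Delta and Notch family that keeps progenitor cells undifferentiated. Its brighter probe had normalized signals of 16.9, 27.3, 29.1, 107, 129 and 126 from 0 to 24 h. As with Igf2, the first 3 were below detection, and Dlk1 was at least 1.60-fold above 0 h at 8 h and at least 1.86-fold at 24 h. The dimmer probe reached detection only at 12 and 24 h, with 28.8 and 31.1.

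Mest, a gene for a hydrolase-like membrane protein, was read by 3 probes, each detected on all 6 arrays. The brightest had normalized signals of 315, 346, 404, 656, 675 and 626 from 0 to 24 h. Against 0 h this was 2.03-fold at 8 h, 2.09-fold at 12 h and 1.94-fold at 24 h. The other probes gave 2.01-fold and 2.08-fold at 8 h and 1.79-fold and 1.71-fold at 24 h, so all 3 were lower at 24 h than at 12 h. Peg3, a zinc finger gene, had 201, 213, 257, 489.7, 547 and 386 from 0 to 24 h. Peg3 too was highest at 12 h, 2.59-fold above 0 h, and lower at 24 h, 1.85-fold above. Its second probe, detected from 4 h on, had 49.5, 77.6, 98.4 and 68.1, with the same order of times.

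Gnas encodes the stimulatory G protein subunit that couples receptors to adenylyl cyclase, along with longer and noncoding transcripts of the same locus. Of its 10 probes, 4 were detected. The brightest had normalized signals of 128, 196, 149, 299.6, 302 and 384 from 0 to 24 h, 2.19-fold above 0 h at 8 h and 2.78-fold at 24 h. A second probe reached 112 at 24 h from 50.2 at 0 h, where it was not detected, which gives at least 1.67-fold. The others went from 23.3 to 78.8 and from 13.5 to 37.9, also from below detection. The annotation does not name the promoter or allele of the transcript each probe reads, and none of the 4 can be assigned to a parental form here. Probes ILMN_2638324 and ILMN_2588147, annotated to the same transcript record as the brightest, were not detected on any array.

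**Figure D1:**
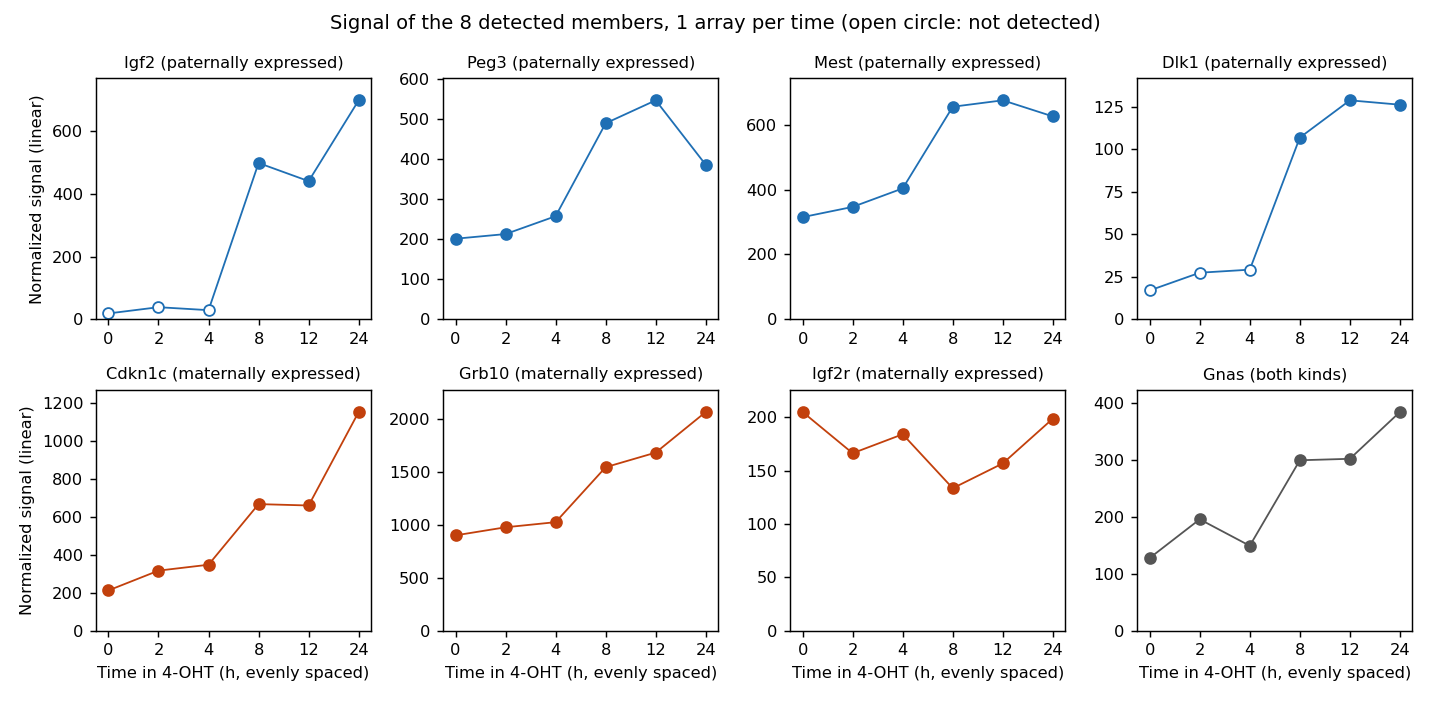
Normalized signal (linear, from 0) of the main probe of each detected member against time in 4-OHT, with 1 point per array, filled where the probe was detected. For 7 of the 8 genes every point from 8 h on lies above every point up to 4 h, and Igf2r is the exception.

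The times of the steps were compared across members. In 7 of 8 the largest step up between neighbouring times was from 4 to 8 h, which held for 23.9% of all genes. In the same 7, every array from 8 h on lay above every array up to 4 h, which held for 21.6% of all genes. Since the members were chosen with these values known, nothing is read from either count, and for Igf2 and Dlk1 the filter itself favoured late signals. Among the members detected on all arrays, the mean of the late arrays exceeded that of the early arrays by 1.43 for Cdkn1c, 1.03 for Peg3, 0.9987 for Gnas, 0.86 for Mest and 0.85 for Grb10 on the log2 scale. The SD among the 3 arrays of either side was at most 0.45 for these genes (n = 3 times, not replicates). For Igf2r the difference was -0.18, with SDs of 0.14 and 0.26.

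**Figure D2:**
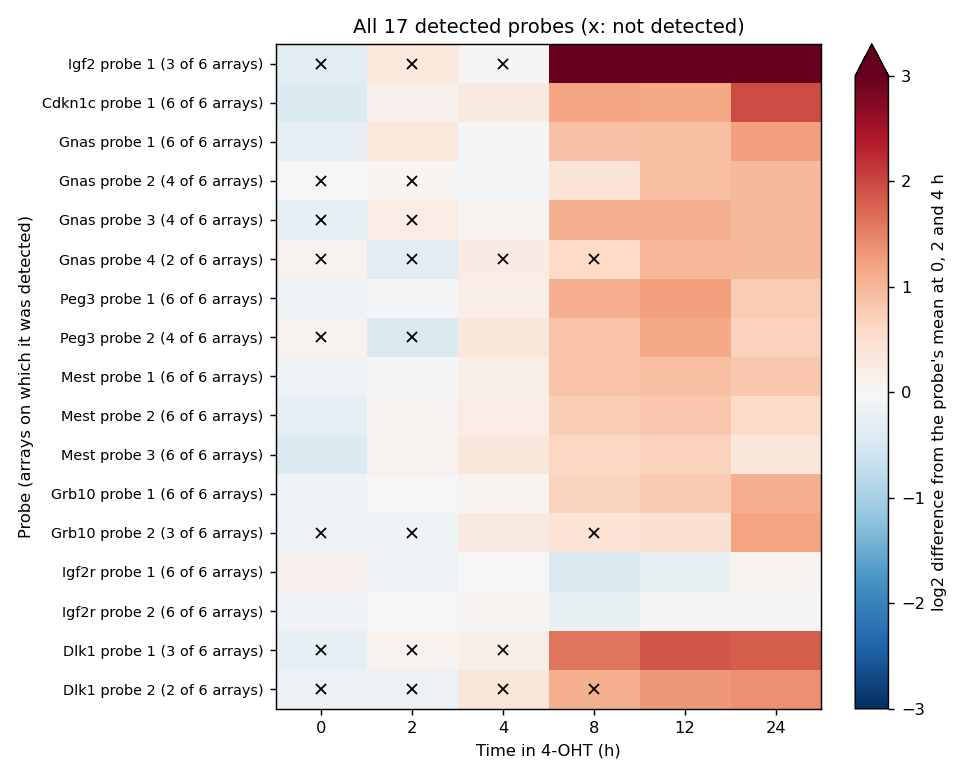
The 17 detected probes of the members by time, coloured by the log2 difference of normalized signal plus 16 from the probe's own mean at 0, 2 and 4 h, with crosses where the probe was not detected. In 15 of the 17 the late arrays all exceed the early ones, and both exceptions are the Igf2r probes. By main probe this held for 21.6% of all genes, and the share over all detected probes was not counted. Several probes read the same gene, and some were detected on late arrays only, so nothing is read from the count.

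At least 2-fold above 0 h at 24 h were 5 of the 8 detected members, against 4.2% of the 8906 genes detected on at least 1 of both arrays. They were Igf2, Cdkn1c, Dlk1, Gnas and Grb10, of which Dlk1 has a bound under 2-fold because it was not detected at 0 h. Just under this limit lay Mest and Peg3, and none was 2-fold lower, against 4.21% of genes. At 8 h 6 members were past 2-fold, against 2.45%, and at 12 h 6, against 4.36%, again with Dlk1, whose bounds were 1.60-fold and 1.89-fold, so that 5 were past it by the bound at either time. None was at 2 h (0.465% of genes) or at 4 h (0.214%). The balance of all genes at 24 h, 374 higher and 375 lower, moved with the offset and table: 714 and 447 with an offset of 4, 87 and 183 with 64, 186 and 252 from the background-corrected intensities, and 33 and 78 without background correction.

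The comparison of paternally with maternally expressed members rests on 4 and 3 detected genes. At 8 h the median log2 difference from 0 h was 1.56 for the paternally expressed members, ranging from 1.02 to 3.91, and 0.77 for the maternally expressed, ranging from -0.56 to 1.58. At 24 h the medians were 1.53 (0.89 to 4.39) and 1.18 (-0.04 to 2.35), against 0.05 for all genes. The ranges of the groups overlapped at every time. Peg3 and Mest among the paternally expressed members lay above 0 h on every later array, and so did Cdkn1c and Grb10 among the 3 maternally expressed. Igf2 and Dlk1 did too, but at 0, 2 and 4 h their signals were all below detection and cannot be ordered. The share of all genes with this pattern was not counted, and nothing is read from it. By the main probes, the direction from 12 to 24 h differed among members. The maternally expressed Cdkn1c, Grb10 and Igf2r each went up, by 0.79, 0.29 and 0.31. The paternally expressed Peg3, Mest and Dlk1 went down, by -0.49, -0.11 and -0.03, and Igf2 went up by 0.65. The second Dlk1 probe went up instead, from 28.8 to 31.1, and the second Igf2r probe was nearly level, at 142 and 143. The other detected probes of Peg3, Mest and Grb10 kept the direction of the main probe. These are differences between single arrays, and the difference between the groups was not tested. The paternal median included Igf2 and Dlk1, which were below detection at 0 h, and left out undetected Plagl1. At 24 h the order of the medians turned under 3 alternatives: 1.05 paternal and 1.14 maternal with an offset of 64, 0.96 and 1.12 from the intensities without background correction (which lack the detected Peg3 probes), and 0.96 and 1.18 without the filter, with Plagl1 included. No order of the groups can be read from these medians.

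**Figure D3:**
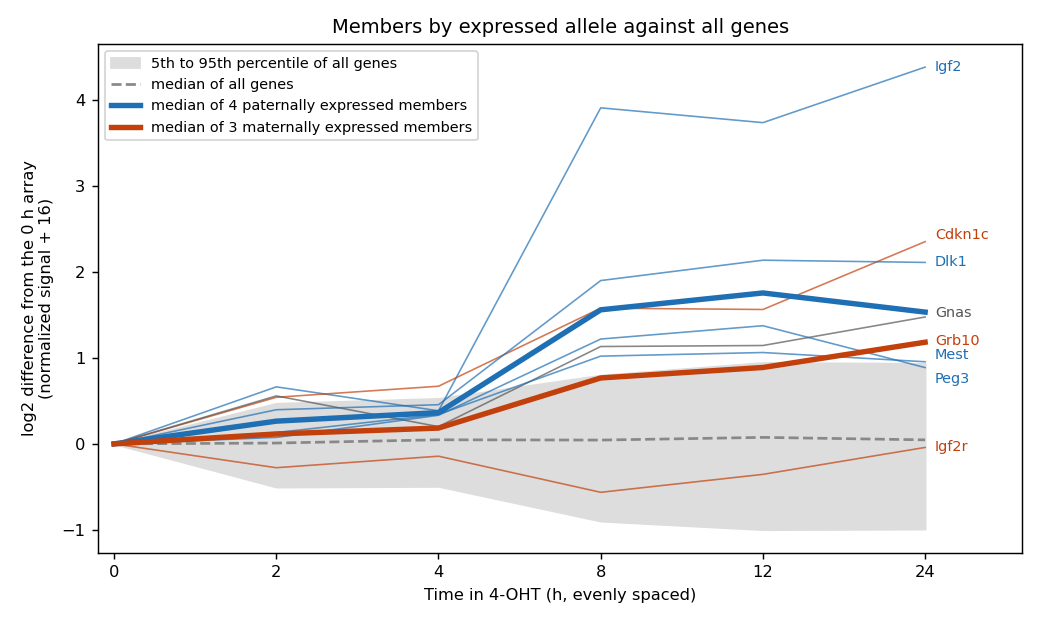
Log2 difference from the 0 h array (normalized signal plus 16) against time, for each detected member (thin lines), the median of each allele group (thick lines) and all genes (dashed median, grey band from the 5th to the 95th percentile). The paternal median lies above the maternal one at each time as plotted, an order that turns at 24 h with an offset of 64, without background correction or without the filter, and single members of the groups overlap.

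Other imprinted genes were taken from a list of textbook genes grouped by cluster and allele, and each was tested for a trend. A line of log2 signal against log2(hours + 1) was fitted with limma, whose p-values rest on the scatter of single arrays about a line, which may be technical. Of 56 listed genes, 25 were detected, and 6 rose and 1 fell at an adjusted p of 0.05, while 6.24% of all 9432 genes rose and 6.19% fell. The median fitted change was 0.13, against 0.06 for all genes. Meg3 and Nnat passed the filter only through the 12 and 24 h arrays, and with detection on at least 3 arrays required, 4 rose and 1 fell of 22. By allele, 4 of 11 paternally and 2 of 14 maternally expressed genes rose, and the difference was not tested. Without the 12 h array 2 rose and 1 fell, and without the 0 h or the 24 h array 3 rose and 1 fell.

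In the cluster of Dlk1, 3 of 5 listed genes were detected and each of the 3 rose. Rian, a maternally expressed noncoding RNA gene of this cluster, had normalized signals of 152, 139, 143, 286, 269.6 and 273 from 0 to 24 h, with no overlap between early and late arrays (fitted change 1.07 ± 0.29, SE; limma adjusted p = 0.038). Meg3, a noncoding RNA gene also expressed from the maternal allele, was detected at 12 and 24 h only, the arrays with the lowest backgrounds, and so passed the filter only where it was high. Its signal at 24 h was at least 1.07-fold that at 0 h (1.30 ± 0.30; limma adjusted p = 0.020). Rtl1, a paternally expressed gene derived from a retrotransposon, had 47.9, 55.4, 75.3, 94.4, 103 and 102 from 0 to 24 h (1.04 ± 0.22, limma adjusted p = 0.016). It was detected only from 4 h on, and at 24 h it was at least 1.55-fold above 0 h. Leaving out either the 0 h or the 12 h array ended the calls of all 3, leaving out 24 h also those of Meg3 and Rian, and leaving out 2 h also that of Rian.

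In the cluster of Cdkn1c none of the 6 other detected genes passed, with fitted changes from -0.86 to 0.33 and a smallest limma adjusted p of 0.23. Kcnq1ot1, the paternally expressed noncoding RNA that silences the cluster, had normalized signals of 77.6, 60.6, 86.3, 92.9, 81.9 and 94.6 from 0 to 24 h. Phlda2, a growth-restraining gene near Cdkn1c that is silenced by the same RNA, stayed between 461 and 561 (0.03 ± 0.16; limma adjusted p = 0.91). Slc22a18 had a fitted change of -0.86 ± 0.45, Cd81 of 0.21 ± 0.11, Tssc4 of 0.13 ± 0.22 and Nap1l4 of -0.02 ± 0.12. In the cluster of Grb10 the maternally expressed gene Cobl, for an actin nucleator, fell. Its main probe had normalized signals of 463, 338, 326, 173, 173 and 145 from 0 to 24 h, 2.97-fold lower at 24 h. This change (-1.72 ± 0.22, limma adjusted p = 0.0036) was opposite in direction to Grb10. A dim Cobl probe, detected on 1 array, differed by -0.25 on the log2 scale at 24 h, and another was not detected. The mean of the Cobl probes did not pass (-0.80). Ddc, for aromatic amino acid decarboxylase, lay beside Grb10 with a change of 0.06 ± 0.16 (limma adjusted p = 0.85). Copg2, next to Mest, had -0.12 ± 0.21 (limma adjusted p = 0.75). Of the listed neighbours of Igf2, Peg3 and Igf2r that had a probe none was detected. No probe was annotated to Nespas, the listed neighbour of Gnas, or to Airn and Slc22a3 beside Igf2r, so these have no value here.

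Outside these clusters, 3 paternally expressed genes rose. Snurf, part of the Snrpn locus, had normalized signals of 3608, 4709, 4886, 6408, 6766 and 6721 from 0 to 24 h (0.99 ± 0.13; limma adjusted p = 0.0038). Its 3 probes detected on all arrays were each higher at 24 h than at 0 h, and 1 dim probe, detected at 8 h only, was lower. Ndn, which encodes necdin, a protein that restrains growth, was 2.36-fold higher at 24 h (1.33 ± 0.19; limma adjusted p = 0.0041), with 176, 224, 228, 349.6, 377 and 439 from 0 to 24 h. Nnat, for a membrane protein of neural and other tissues, was detected at 12 and 24 h only, and so passed the filter only where it was high. Its call (1.72 ± 0.40, limma adjusted p = 0.021) therefore carries little weight, and it was lost without the 2, 12 or 24 h array. Its signal of 58.4 at 24 h was below the detection limit of the 0 h array, so no fold is given. Every late array lay above every early one for Snurf and Ndn, which held for 21.6% of all genes. For Nnat the signals at 0, 2, 4 and 8 h were all below detection and cannot be ordered.

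**Figure D4:**
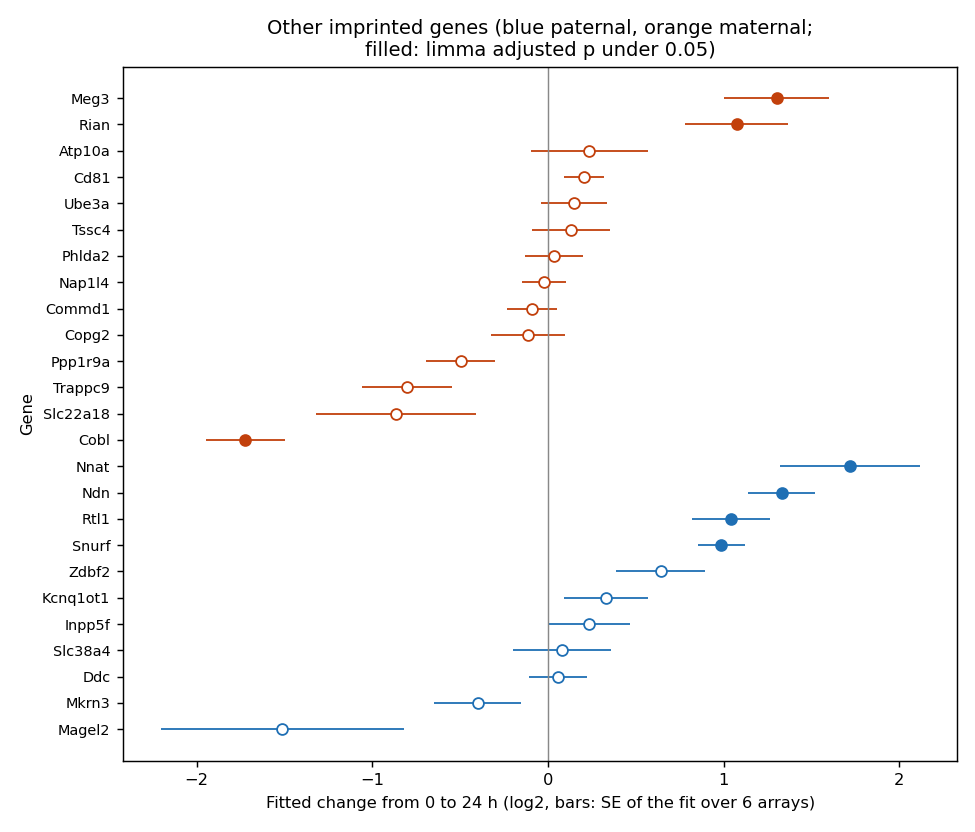
Fitted change from 0 to 24 h on the log2 scale, with the SE of the fit over 6 arrays, for the 25 detected imprinted genes beside the members, filled where the limma adjusted p was under 0.05. The paternally expressed genes that rose are Nnat, Ndn, Rtl1 and Snurf, the maternally expressed are Meg3 and Rian, and Cobl fell.

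Genes around IGF2 signalling were followed from a list of 21, of which 11 were detected. Of these 3 rose and none fell, against 6.24% and 6.19% of all genes. Igf2bp1, for an RNA-binding protein that binds Igf2 transcripts, had normalized signals of 1489.9, 1793, 1768, 2410.0, 2215 and 2220.4 from 0 to 24 h (0.66 ± 0.16; limma adjusted p = 0.024). Irs2, an adaptor of the insulin and IGF1 receptors, was detected from 4 h on and reached its highest signal at 12 h. At 24 h it lay at least 1.27-fold above 0 h (1.75 ± 0.33, limma adjusted p = 0.0099). Igfbp3, for a binding protein that carries IGFs, was detected at 4, 12 and 24 h (1.24 ± 0.26; limma adjusted p = 0.015). Igf1r, the receptor through which IGF2 signals, had a change of 0.22 ± 0.21 (limma adjusted p = 0.51), and Igf2bp3 of 0.25 ± 0.14 (limma adjusted p = 0.26). Igf1 was not detected, and no probe was annotated to Igf2bp2. Without the 0 h array none of the IGF genes passed, and without the 12 h array 1 did.

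Among factors that keep or read imprints, 3 of 11 detected fell and none rose, against 6.19% and 6.24% of all genes. They were Dnmt1, the maintenance DNA methyltransferase (1.44-fold lower at 24 h; -0.53 ± 0.14; limma adjusted p = 0.035), Ehmt2, a histone H3 lysine methyltransferase (1.54-fold lower; -0.72 ± 0.18; limma adjusted p = 0.026), and Arid4a, a chromatin protein (1.79-fold lower; -0.81 ± 0.20; limma adjusted p = 0.030). For Ehmt2 both detected probes were lower. For Arid4a the other detected probes differed by -0.22 and 0.01 on the log2 scale at 24 h, and the mean of its probes did not pass (-0.42). Trim28, the corepressor that ZFP57 recruits, had 0.21 ± 0.14 (limma adjusted p = 0.33), and Ctcf, the insulator protein that separates Igf2 from its enhancers on the maternal allele, had 0.34 ± 0.16 (limma adjusted p = 0.18). Of the 3 falls none passed without the 2 h, the 12 h or the 24 h array, where leaving out 24 h made 1 other factor of the list pass as higher and 1 as lower. Of 6 other inhibitors of cyclin-dependent kinases listed, 4 were detected. None of the 4 passed by limma, with 0 at an unadjusted p under 0.05. Cdkn1a had -0.25 ± 0.25 (limma adjusted p = 0.52), and Cdkn1b and Cdkn2b were not detected.

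By their patterns over the 6 arrays, the genes most like Igf2 among 7751 detected on at least 3 arrays were Commd3, Dhx33, Irgq, Gpx3 and Nkapd1. Their Pearson correlations with Igf2 lay between 0.994 and 0.996 (n = 6 arrays, which all genes share). Gpx3, for a secreted glutathione peroxidase, had normalized signals of 101, 104, 108, 279, 280.5 and 307 from 0 to 24 h, the same step after 4 h at a smaller size. Nearest to Cdkn1c were Kcmf1, the simple keratin gene Krt8, the ETS factor gene Etv1, Pdlim7 and the tropomyosin gene Tpm4, with correlations between 0.993 and 0.998. Krt8 had 124, 148, 157, 214, 224 and 266, with its largest step from 4 to 8 h, as for Cdkn1c. Igf2 and Cdkn1c themselves correlated at 0.95, and Igf2 and Dlk1 at 0.99, while Igf2r correlated with Igf2 at -0.44. Igf2 and Dlk1 were both below detection up to 4 h and passed the filter only through later arrays, which favoured a high correlation. The members were chosen with these values known, and the share of all genes with such correlations was not counted. Nothing is read from the correlations among members.

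Markers of the cells were read beside these values. All 6 embryonic stem cell markers (Pou5f1, Sox2, Nanog, Utf1, Dppa5a and Fgf4) were detected, and their summed normalized signal, mostly Dppa5a, lay between 25451 and 31550. Within the list Nanog fell, 2.67-fold lower at 24 h (limma adjusted p = 0.0081), Utf1 rose, 1.43-fold higher (limma adjusted p = 0.024), and the other 4 did not pass. Of 10 fibroblast feeder markers 3 were detected, with sums of 177 to 232 on the early and 161 to 208 on the late arrays, and Col1a1, Col1a2, Col3a1, Lum, Postn, Prrx1 and Pdgfrb were below detection on every array. Within the feeder list Thy1, the only one detected on all arrays, went from 161 at 0 h to 91.6 at 24 h (-0.87 ± 0.31; limma adjusted p = 0.089). Twist1 and Dcn were detected at 12 and 24 h only, with no fold, and of these Twist1 passed (limma adjusted p = 0.035) and Dcn did not (limma adjusted p = 0.090). Of 8 extraembryonic endoderm markers Sox7 and Dab2 were detected, and their sum was 71.7 to 94.5 early and 104 to 133 late. They differed in direction, and neither passed. Dab2, detected from 4 h on, had 0.75 ± 0.23 (limma adjusted p = 0.056). Sox7, detected at 12 and 24 h only, had -0.29 ± 0.45 (limma adjusted p = 0.70). The highest sum, at 8 h, includes a Sox7 signal of 60.3 that was below detection. Sox17, Gata4, Gata6, Afp, Ttr and Pdgfra were below detection. Of 7 trophoblast markers Tfap2c and Gata3 were detected, with sums of 309 to 479 early and 125 to 222 late. The sums were mostly Tfap2c, which fell, 2.35-fold lower at 24 h (limma adjusted p = 0.018). Gata3 went the other way, was detected at 24 h only, at 27.3, and did not pass. Of 6 mesoderm markers on the array only Tbx6 was detected, with signals of 7.27 to 24.6 over the arrays. The part of cells of these other types in the values above was not tested. In a bulk sample, more cells of a type and more RNA per cell cannot be told apart.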

How the data were processed

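RNA from E14 cells was read on 6 Illumina bead arrays, 1 per time. The deposited probe intensities are linear, without background subtraction, and each probe has its detection p-value on every array, as the deposited headers name it. The deposited value table holds normalized intensity; from its values it is linear, background-subtracted and quantile normalized. The submitters' processing notes name GenomeStudio; no version or step is stated in the labels. As held here, the intensity table covers 32765 of 45281 probes (72.4%) and lacks Plagl1 and most Peg3 probes, so the normalized table was used.

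Negative values were set to 0, 16 was added and log2 taken, which understates changes of dim genes. Probes with 1 gene symbol (34885, with 34807 matched to RefSeq by Entrez identifier; 18 had several and 10378 none) and detected on at least 1 array were kept, and the probe with the highest mean stood for its gene, giving 9432 genes. Trends were fitted with limma 3.58.1 in R 4.3.3 (lmFit, then eBayes with an intensity trend), 2-sided, with Benjamini-Hochberg adjustment over all genes and 4 residual degrees of freedom, and tested on simulated data. The alternatives varied the offset, table, filter, probe choice, time scale, base array and arrays used. Rules for named genes were all members, imprinted neighbours in their clusters, list genes past the test, the partners Igf1r, Igf2bp1, Igf2bp2, Igf2bp3 and Cdkn1b, and the 5 nearest patterns to Igf2 and Cdkn1c; Trim28, Ctcf, Cdkn1a and the cell type markers were named after their values were seen. Members and lists were chosen with earlier results of these data known. The only coordinates given are those of the promoter windows, on build GRCm38.p6. None are given for genes or probes, since the array tables name no build.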

Additional observations from a re-analysis of the deposited data

How the results depend on the processing

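With 1 array per time, no value at a time has a replicate, and dim signals on the 0, 2 and 8 h arrays are the least certain. No paired analysis was possible because the times share no replicates. The number of genes with a trend, 1173 as reported, was 768 and 773 in the intensity table with and without background correction, which holds fewer genes, 29 against untransformed hours (2244 at an unadjusted p under 0.05), 2037 with late set against early arrays, and 434 to 1223 with single arrays left out. Without the detection filter limma called 0 genes (3321 passed 0.05 before adjustment, and the smallest adjusted p was 0.13), and so 0 of the other imprinted (11 unadjusted), IGF (5) and imprint maintenance genes (4). The other imprinted genes, 7 as reported, gave 4 by the mean of the gene's probes, 0 against untransformed hours (9 unadjusted), 11 with late against early arrays, and 3 to 8 with arrays left out. The IGF genes, 3 as reported, gave 0 against untransformed hours (4 unadjusted), 5 with late against early arrays, and 0 to 3 with arrays left out. The imprint maintenance factors, 3 as reported, gave 0 against untransformed hours (3 unadjusted) and 0 to 3 with arrays left out. Genes 2-fold from 0 h at 24 h, 749 as reported, numbered 1161 with an offset of 4, 270 with 64, 438 and 111 in the intensity table with and without background correction, 428 with late against early arrays, and 445 from the 4 h array, a base chosen after seeing the data. From that base 4 members were past 2-fold, with Grb10 just under. Without background correction 4 were, with Dlk1 just under. For late against early arrays 4 were, with Peg3 among them and Gnas and Grb10 under. The other alternatives gave 5 members, as reported. The median of the paternally expressed members at 24 h was 0.96 without background correction and without the filter and 1.05 with an offset of 64, where that of the maternally expressed members was 1.12, 1.18 and 1.14, so the order of the groups turned. That of the maternally expressed members was 0.85 for late against early arrays. For Snurf the intensity table gave -0.85 with and -0.32 without background correction, since it holds only the dim probe. All 13 genes past the test in the other imprinted, IGF and imprint maintenance lists lost the call under 2 to 7 of the 13 to 15 alternatives. The calls of the cell type markers Nanog, Utf1, Tfap2c and Twist1 were not followed over the alternatives. Over its alternatives the log2 difference, from 0 to 24 h in most of them, ran from 2.78 to 4.98 for Igf2, 1.43 to 2.42 for Cdkn1c and -0.18 to 0.10 for Igf2r. The lowest values for Cdkn1c and Igf2r are those of late against early arrays. The highest for Igf2r is that of 24 h from the 4 h array.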
